A study of Mus musculus with 4 samples.

Results

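The genes described here are 44 genes of mitosis and the G2/M transition, the passage from DNA replication into division. Members were taken by gene name from a list of known roles in division, which was drawn up with earlier results of these data known. A member was measured where a probe set, a group of short probes for 1 transcript, was annotated to that gene and to no other. Such probe sets were found for 43 of the 44 members, 98 probe sets in all, among 18193 genes measured in the same way. Ccnb1, the cyclin B1 gene, had none and was not analysed here. All 43 lay above the floor of 189, the median of all signals, on each of the 4 arrays, so no member entered the analysis through 1 group alone.

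RNA from 4 mouse samples was hybridised to 1 Affymetrix array each. In the mixed lineage leukemia the blood stem and precursor cells had been transduced with both AF4-MLL and MLL-AF4, the reciprocal fusions of the genes for AF4 (Aff1) and MLL (Kmt2a). The proB ALL (acute lymphoblastic leukemia) and the B/T BAL, a biphenotypic acute leukemia with B and T features, arose from stem and precursor cells transduced with AF4-MLL alone. The control was normal bone marrow, for which the labels name no fusion. Leukemic marrow came from moribund mice several months on, the series title gives the mice as C57BL6, and cells were immunophenotyped but not sorted. No source used here gives the ages of the mice or the vectors. Each group was 1 sample, so a difference between single arrays has no replicate error, and the label of a leukemia type stands for 1 leukemia.

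A cell that enters mitosis switches on cyclin-dependent kinase 1 (Cdk1) through B-type cyclins and the CDC25 phosphatases. Polo-like and Aurora kinases then build the spindle, kinesins move and crosslink its microtubules, and kinetochores tie chromosomes to it. The spindle checkpoint holds the cell in metaphase until every chromosome is attached. After that the anaphase-promoting complex (APC/C) with Cdc20 and Ube2c has securin (Pttg1) and cyclins destroyed, and separase (Espl1) frees the sister chromatids. The transcripts of most of these genes peak together in late G2 and M, which makes them common markers of dividing cells, and normal marrow holds many dividing precursors. In cycling cells this joint timing is known to run through the MuvB complex with MYBL2 and FOXM1, which binds a promoter element called the cell cycle genes homology region, and through NF-Y at CCAAT boxes.

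Promoter windows of 300 bases, from 250 before to 50 after the gene start, were at hand for 38 members, as 41 windows in RefSeq's annotation of GRCm38.p6. Both strands were searched for the letters TTTGAA and TTCGAA of the homology region, for CCAAT and, as a common promoter word, for GGCGGG. Overlapping matches were counted. The windows below are shown because they carry both kinds of element. Cdc25b and Ube2c had lower signals in each leukemia, Ccnb2 is a B-type cyclin, and Bub1b had a higher signal in B/T BAL. Capitals mark the homology letters and the CCAAT boxes, on either strand.

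Cdc25b, chr2:131186698-131186997, plus strand: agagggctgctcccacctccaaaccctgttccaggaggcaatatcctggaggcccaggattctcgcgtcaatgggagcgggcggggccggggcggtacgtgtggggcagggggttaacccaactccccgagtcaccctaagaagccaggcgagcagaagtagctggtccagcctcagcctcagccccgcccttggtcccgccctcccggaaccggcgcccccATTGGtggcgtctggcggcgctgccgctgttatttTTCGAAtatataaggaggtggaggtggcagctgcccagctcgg

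Ube2c, chr2:164769679-164769978, plus strand: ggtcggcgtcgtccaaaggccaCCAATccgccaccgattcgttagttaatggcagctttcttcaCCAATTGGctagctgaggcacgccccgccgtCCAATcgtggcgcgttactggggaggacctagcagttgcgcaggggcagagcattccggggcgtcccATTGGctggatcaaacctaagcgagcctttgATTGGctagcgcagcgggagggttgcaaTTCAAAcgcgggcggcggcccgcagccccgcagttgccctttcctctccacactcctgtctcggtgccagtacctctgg

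Ccnb2, chr9:70421505-70421804, minus strand: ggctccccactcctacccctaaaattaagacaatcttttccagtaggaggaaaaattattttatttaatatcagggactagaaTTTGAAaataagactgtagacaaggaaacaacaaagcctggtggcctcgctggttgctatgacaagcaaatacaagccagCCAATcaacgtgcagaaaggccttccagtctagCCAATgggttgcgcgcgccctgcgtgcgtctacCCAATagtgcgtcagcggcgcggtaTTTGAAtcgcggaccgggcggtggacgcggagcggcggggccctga

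Bub1b, chr2:118597961-118598260, plus strand: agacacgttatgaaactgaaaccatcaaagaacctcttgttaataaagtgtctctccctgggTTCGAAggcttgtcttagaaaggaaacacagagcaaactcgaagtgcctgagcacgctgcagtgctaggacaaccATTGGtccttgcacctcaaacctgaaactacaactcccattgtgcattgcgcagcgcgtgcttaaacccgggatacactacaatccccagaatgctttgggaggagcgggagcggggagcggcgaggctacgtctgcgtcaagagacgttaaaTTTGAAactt

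In the Ube2c window 6 CCAAT matches were counted, a pair of which overlap, and the homology letters lie at position -29 from the start. In Ccnb2 the 3 CCAAT boxes begin at -87, -54 and -21, and the homology letters at position 5. Cdc25b has 1 CCAAT match at -28 and TTCGAA at position 8. In Bub1b the TTTGAA match begins at position 41. The last 100 bases of 5 further windows, shown to place the elements near the start in kinases, a spindle protein and Cdc20, read as follows.

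Plk1, chr7:122159385-122159484, plus strand: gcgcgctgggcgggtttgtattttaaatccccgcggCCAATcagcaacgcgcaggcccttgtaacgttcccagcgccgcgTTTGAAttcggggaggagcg

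Cdc20, chr4:118437294-118437393, minus strand: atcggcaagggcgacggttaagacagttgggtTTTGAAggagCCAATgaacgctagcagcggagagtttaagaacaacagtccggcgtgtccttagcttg

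Prc1, chr7:80294401-80294500, plus strand: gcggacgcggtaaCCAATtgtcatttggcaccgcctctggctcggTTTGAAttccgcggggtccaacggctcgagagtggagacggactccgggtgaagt

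Cdk1, chr10:69352863-69352962, minus strand: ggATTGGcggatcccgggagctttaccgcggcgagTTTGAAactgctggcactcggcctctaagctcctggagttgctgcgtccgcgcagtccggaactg

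Aurka, chr2:172370521-172370620, minus strand: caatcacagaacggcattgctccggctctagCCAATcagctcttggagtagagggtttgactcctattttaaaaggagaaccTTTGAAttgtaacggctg

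TTTGAA or TTCGAA began within the last 100 bases of 29 of the 41 member windows, 70.7%, against 5.31% of all 32851 windows and 3.72% of the windows of the genes tested on the arrays. CCAAT was found anywhere in 78.0% of member windows and in 37.4% of all windows. Both together, CCAAT anywhere and the homology letters in the last 100 bases, were in 65.9% of member windows and in 2.24% of all. GGCGGG was in 73.2% of member windows, 35.3% of all windows and 56.2% of the windows of tested genes. Such letters are a description of the sequence and show no binding. Members with and without the homology letters in the last 100 bases had similar median log2 differences from normal marrow. For the 27 measured members with them the medians were -0.59, -1.17 and -0.53 for the mixed lineage, proB and B/T leukemias, and for the 10 without them -0.42, -0.96 and -0.49. Not searched were Ccna2, Cdc25c, Aurkb, Incenp, Kif20a and Tpx2.

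**Figure D1:**
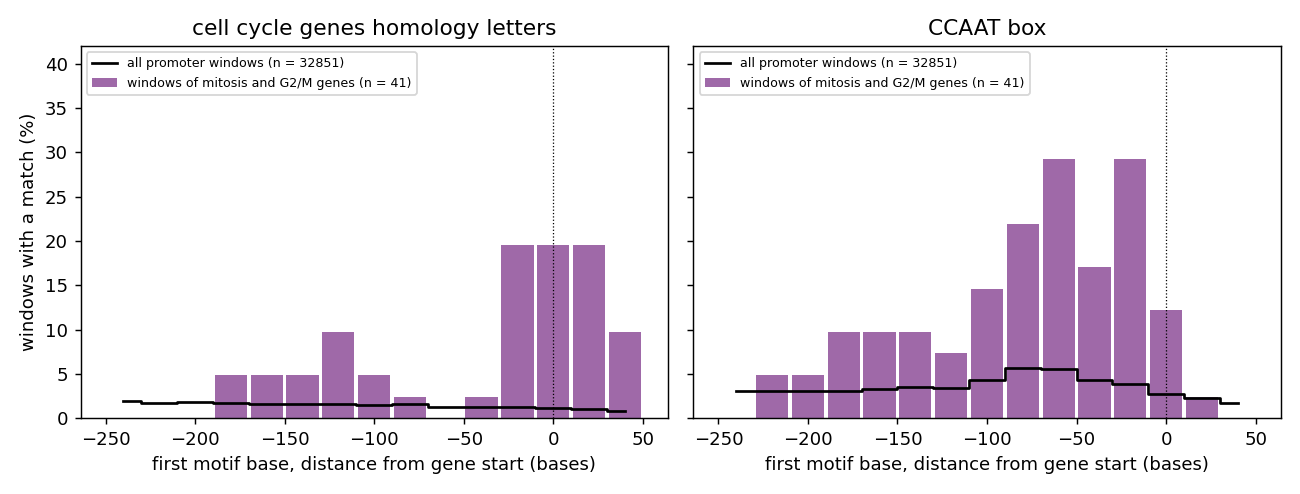
Share of promoter windows with a match (%) by distance of the first motif base from the gene start, in bins of 20 bases; bars are the 41 windows of mitosis and G2/M genes and the line is all 32851 windows. The homology letters gather around the start in the members, reaching 19.5% of windows per bin against at most 1.91% in any bin over all windows, and CCAAT boxes gather just upstream.

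Signals of cell type marker genes differed widely between the arrays. The summed signal of 9 erythroid markers (Klf1, Alas2, Rhd and others) was 222427 for normal marrow and 9724, 14020 and 18773 for the mixed lineage, proB and B/T leukemias, and each leukemia had all 9 at least 2-fold below normal marrow. Of 9 B-cell precursor markers with a probe set, 6 lay below the floor on the array labelled proB ALL, among them Pax5, Ebf1, Vpreb1 and Igll1, while all 7 measured natural killer cell markers exceeded normal marrow at least 2-fold there, with a summed signal of 99488 against 10064. On the B/T BAL array all 8 measured T-cell markers exceeded normal marrow at least 2-fold, with 162746 against 3813. On the proB ALL array 3 of these 8 did so and 1 was at least 2-fold lower, with a summed signal of 45465. In B/T BAL 4 of the 9 B-precursor markers lay below the floor. Of the same list, Rag1 and Dntt exceeded normal marrow at least 2-fold in B/T BAL, with 14988 against 1721 and 11061 against 2913. On the mixed lineage and normal arrays 5 and 1 of the 9 lay below the floor. Late neutrophil markers summed to 540214, 114655, 363138 and 333638 over the mixed lineage, proB, B/T and normal arrays. Monocyte markers summed to 116592, 18783, 16785 and 35825 in that order, and stem and progenitor markers to 6506, 2484, 1295 and 6933. Stroma markers summed to 8419, 3314, 74063 and 9088. In B/T BAL 2 of the 7 stroma markers, Col1a2 and Pdgfrb, were at least 2-fold above normal marrow and 1 at least 2-fold below. Early neutrophil markers, those of the dividing precursors, summed to 195408, 15870, 29523 and 133001, and all 5 were at least 2-fold below normal marrow in both proB ALL and B/T BAL. As a sign of RNA quality, Actb had a 3' over 5' ratio of 3.10, 2.47, 4.72 and 1.87 in the same order, lowest in normal marrow. For Gapdh the ratio was 1.24, 1.28, 1.14 and 0.944, again lowest in normal marrow. B/T BAL had the highest ratio of the leukemias for Actb and the lowest for Gapdh. The part of cell make-up and of RNA quality in the results below was not tested, and in unsorted marrow fewer dividing cells cannot be told apart from less RNA of these genes per cell.

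Signals of mitosis and G2/M genes were highest in normal marrow and lowest in proB ALL for most members. Normal marrow had the highest of the 4 signals for 32 of the 43 members (74.4%), against 19.2% of the 14012 genes tested. The proB ALL array had the lowest signal for 32 members as well (74.4%), against 29.9% of all genes tested. For 15 members the order was normal marrow, mixed lineage leukemia, B/T BAL and proB ALL, an order shown by 4.22% of all genes tested. Signals were analysed as log2(signal + 51.4), and all log2 differences are on that scale. The median log2 difference of the members from normal marrow was -0.46, -1.02 and -0.53 for the mixed lineage, proB and B/T leukemias, beside 0.08, -0.11 and 0.05 for all genes tested. These 3 comparisons share the 1 normal array.

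In proB ALL 22 of 43 members (51.2%) were at least 2-fold lower than in normal marrow, beside 18.7% of all genes, and 0 were at least 2-fold higher, beside 11.3%. In B/T BAL 11 members (25.6%) were at least 2-fold lower, beside 17.7%, and Bub1b alone was at least 2-fold higher, beside 15.4% of all genes. In mixed lineage leukemia 9 members (20.9%) were at least 2-fold lower, beside 15.2%, and 0 were higher, beside 18.8%. The mixed lineage and B/T BAL shares of lower members were thus not far from the background, while the shares of members on the lower side of 0 were 83.7% and 88.4%, beside 46.9% and 47.9% of all genes. With arrays scaled to a common 75th percentile, 4 members in place of 9 were at least 2-fold lower in mixed lineage leukemia, beside 12.7% of all genes, so the members' share then lay below the background. That scaling moved the median of all genes by 0.15 on that array. By their brightest probe sets Ccnf, Cdc25b, Prc1 and Hmmr were at least 2-fold lower in each of the 3 leukemias, 4 of 43 members beside 4.45% of all genes. For Prc1 and Hmmr this did not hold for every probe set. The other Prc1 probe set had a log2 difference of -0.89 in B/T BAL, and a dim Hmmr probe set had 0.66 in proB ALL.

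**Figure D2:**
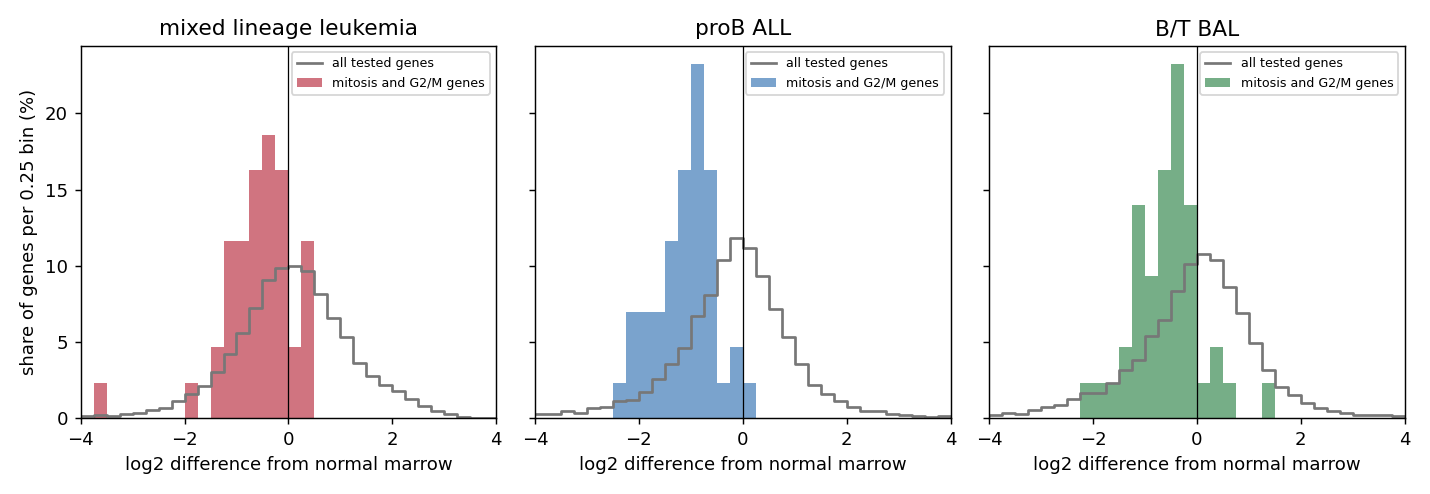
Distribution of log2 differences from normal marrow in bins of 0.25, as the share of genes per bin (%), for each leukemia array; filled bars are the 43 mitosis and G2/M genes and the grey line is all 14012 tested genes. Most members sit to the left of 0 in each panel, furthest in proB ALL, where their median was -1.02 beside -0.11 for all genes.

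No member passed the test of the 3 leukemias against normal marrow. By limma with Benjamini-Hochberg adjustment over all 14012 genes, 0 of 43 members and 0% of all genes passed the threshold of 0.05, and among members Cdc25b came nearest, with an adjusted p of 0.996. The test takes its spread from 3 leukemias of different immunophenotype. At an unadjusted p under 0.05, 1 member was lower (Cdc25b) and 0 were higher, beside 2.63% and 0.314% of all genes. Over the members the fitted difference was negative for 40 and positive for 3 (Bub1b, Bub3 and Mad2l1), with a median of -0.72 beside 0.02 for all genes, and standard errors from 0.53 to 0.96.

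**Figure D3:**
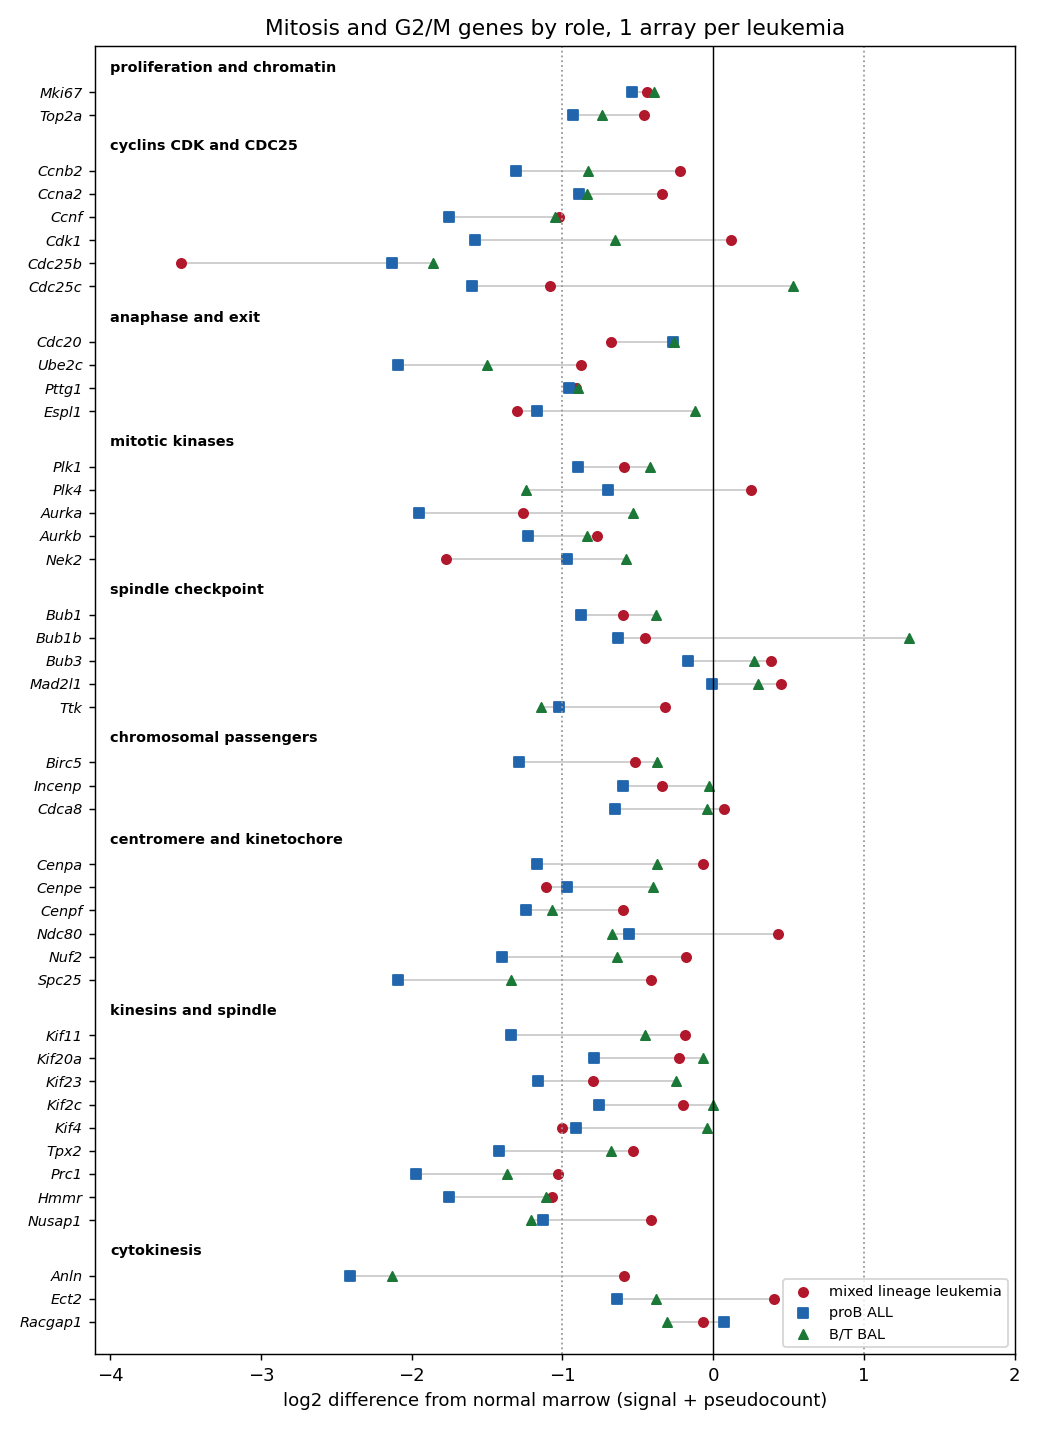
Log2 difference from normal marrow of each of the 43 measured members, grouped by role, with 1 point per leukemia array; dotted lines mark 2-fold lower and higher. Most points lie left of 0, the proB ALL point is often the leftmost, and Bub1b in B/T BAL is the 1 point beyond 2-fold higher.

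Of the general markers of dividing cells, Mki67, the Ki-67 protein that coats mitotic chromosomes, had signals of 21304, 19940 and 22166 for the mixed lineage, proB and B/T leukemias and 28986 for normal marrow. Values that follow without names are in this order of arrays. The 3 leukemias lay within a log2 range of 0.15 of each other for this gene, and all were below normal marrow by less than 1.5-fold. Top2a, the topoisomerase that untangles replicated DNA, had 18235, 13164 and 15048 in the leukemias and 25151 in normal marrow. A further Top2a probe set went the other way, with 1201, 1464 and 1358 in the leukemias and 918 in normal marrow.

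Cyclins and their kinase were lowest in proB ALL. Cdk1, the kinase that drives mitotic entry, had 14507 for mixed lineage leukemia, 4428 for proB ALL, 8474 for B/T BAL and 13333 for normal marrow. Mixed lineage leukemia thus lay 1.09-fold above normal marrow for Cdk1 and proB ALL 3.01-fold below. Ccnb2, cyclin B2, had 12704, 5908, 8258 and 14771 in the same order of arrays, the same ranking but for the top place. Ccna2, cyclin A2 of S and G2, had 12173, 8262, 8552 and 15390, and Ccnf, the F-box cyclin of G2, had 1599, 944, 1567 and 3298. The other Ccna2 probe set gave a larger gap, with 5144, 4713, 4889 and 15216.

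The CDC25 phosphatases, which remove the inhibitory phosphates from Cdk1, went separate ways. Cdc25b had signals of 1365 for mixed lineage leukemia, 3690 for proB ALL, 4454 for B/T BAL and 16329 for normal marrow. Its log2 differences from normal marrow were -3.53, -2.13 and -1.86, the first being the largest gap of any member on the mixed lineage array. Over the 3 leukemias its log2 difference was -2.51 ± 0.81 (standard error, limma), with an unadjusted p of 0.016 and an adjusted p of 0.996. It was measured by 1 probe set only. Cdc25c had 724, 487 and 2304 in the mixed lineage, proB and B/T leukemias and 1584 in normal marrow, so B/T BAL lay above normal marrow and the others below it. The other Cdc25c probe set had 949, 566, 1272 and 1011 in the same order, with B/T BAL again the highest.

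**Figure D4:**
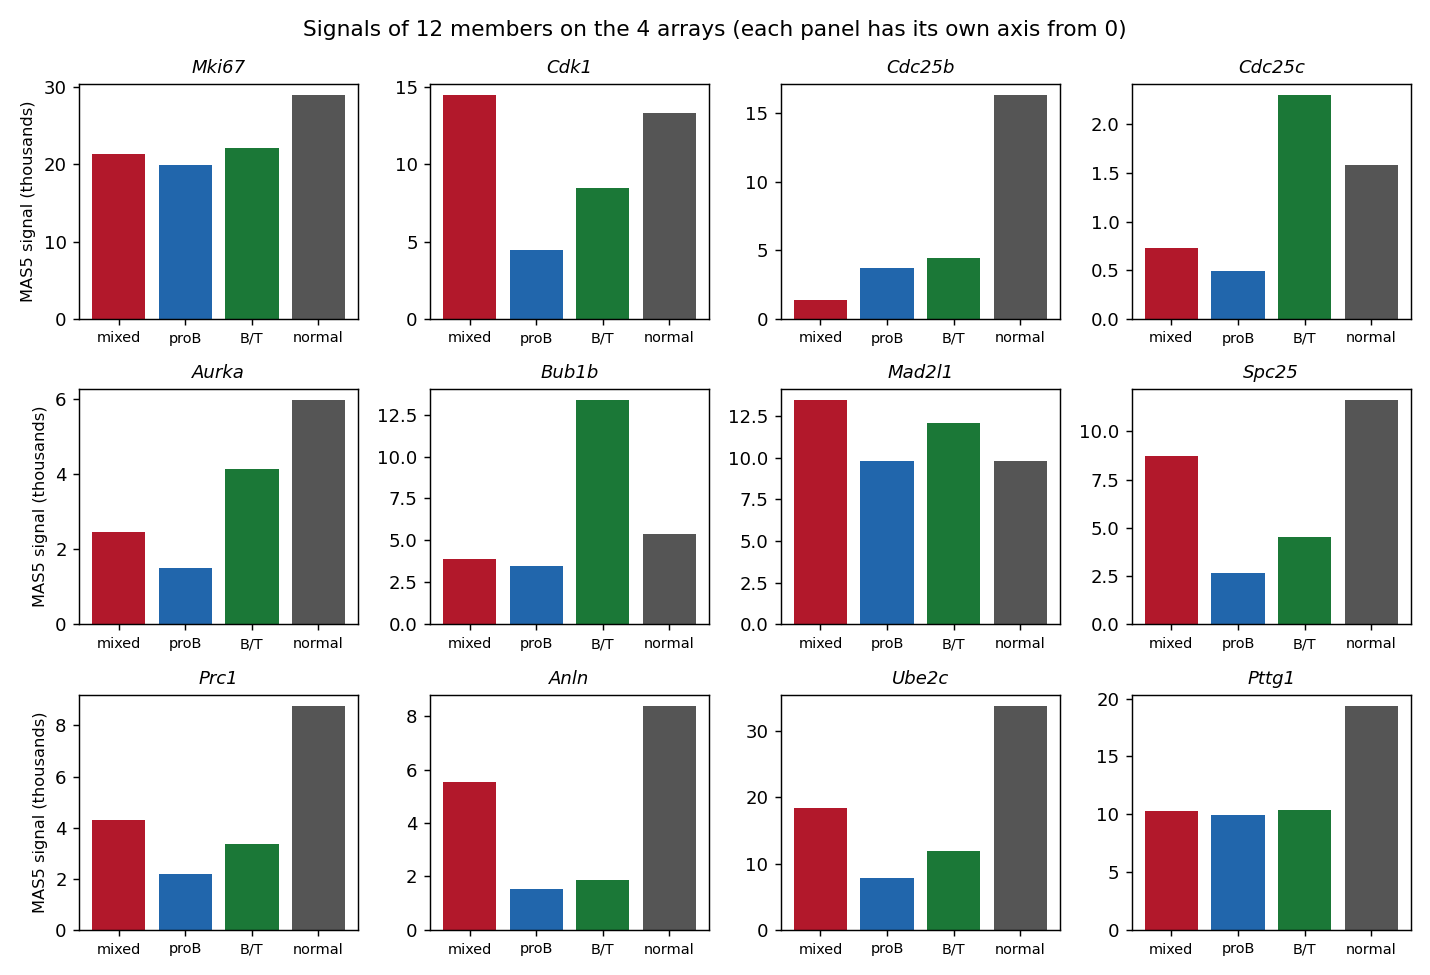
MAS5 signal in units of 1000 of 12 members on the 4 arrays, 1 bar per array, each panel on its own axis from 0. Normal marrow is highest for Mki67, Cdc25b, Aurka, Spc25, Prc1, Anln, Ube2c and Pttg1, mixed lineage leukemia for Cdk1 and Mad2l1, and B/T BAL for Cdc25c and Bub1b.

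Of the 5 mitotic kinases, 4 were below normal marrow in all 3 leukemias, beside 74.4% of all members and 19.2% of all genes. Aurka, Aurora A of the spindle poles, had 2463, 1504 and 4120 in the mixed lineage, proB and B/T leukemias and 5952 in normal marrow. Aurkb, the kinase of the chromosomal passenger complex, had 3215, 2329, 3062 and 5529. Plk1, which acts from mitotic entry to cytokinesis, had 3830, 3086, 4332 and 5806, within 2-fold on every array. Nek2, a kinase of centrosome separation, was lowest in mixed lineage leukemia, with 1427, 2522, 3329 and 4987. Another Nek2 probe set had 810, 891, 2246 and 2205, with B/T BAL level with normal marrow. A dimmer Nek2 probe set was lowest in proB ALL, with 355, 115, 276 and 364. Plk4, which starts centriole duplication, was the exception, with 9706 in mixed lineage leukemia, above the 8126 of normal marrow, and 4997 and 3417 in proB ALL and B/T BAL. Its other probe sets put mixed lineage leukemia below normal marrow, with 2249 against 2864 and 495 against 823.

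Among spindle checkpoint genes 3 of 5 were not below normal marrow in every leukemia. Bub1, a checkpoint kinase, had 3823, 3126, 4433 and 5804, lowest in proB ALL. The other Bub1 probe set had mixed lineage leukemia above normal marrow and B/T BAL level with it, with 811, 373, 580 and 575. Bub1b, the checkpoint kinase-like protein BubR1, had 13348 in B/T BAL against 3918 and 3458 in the other leukemias and 5390 in normal marrow. B/T BAL was 2.48-fold above normal marrow for Bub1b and 3.41-fold above mixed lineage leukemia. Another Bub1b probe set showed the same order at the top, with 9609 in B/T BAL against 3383, 2243 and 3889. The fitted difference of Bub1b over the 3 leukemias, 0.07 ± 0.87 (limma standard error), was -0.54 without B/T BAL. Mad2l1, the checkpoint protein Mad2, had 13442, 9772, 12082 and 9825, and Bub3, the partner of Bub1 and BubR1, had 20796, 14183, 19239 and 15969. Both varied by less than 1.5-fold from normal marrow. For Bub3 another probe set put each leukemia near or below normal marrow, with 1430, 814, 1074 and 1404. Ttk, the Mps1 kinase of the checkpoint, had 2294, 1387, 1275 and 2875, and a further, dimmer Ttk probe set was higher in the leukemias, with 596, 556, 357 and 239.

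Of the chromosomal passenger genes, Birc5, Incenp and Cdca8 differed little between B/T BAL and normal marrow by their brightest probe sets. Birc5 (survivin) had 15898, 9313 and 17662 in the mixed lineage, proB and B/T leukemias and 22776 in normal marrow. Incenp, the scaffold of the complex, had 23013, 19182, 28524 and 29076, and Cdca8 (borealin) had 19860, 12026, 18385 and 18915. In B/T BAL the median log2 difference of the 3 genes was -0.04, and in proB ALL it was -0.65. Further Cdca8 probe sets had B/T BAL below normal marrow, with 10892 against 18048 and 3517 against 4272. Further Incenp probe sets had it level or above, with 7156 against 6973 and 733 against 462. Aurkb, the kinase of the same complex, was 1.81-fold below normal marrow in B/T BAL.

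Of 6 centromere and kinetochore members, 1, 4 and 2 were at least 2-fold lower in the mixed lineage, proB and B/T leukemias, beside 15.2%, 18.7% and 17.7% of all genes. Spc25, Nuf2 and Ndc80 encode parts of the NDC80 complex, which binds spindle microtubules. Spc25 had 8714 for mixed lineage leukemia, 2682 for proB ALL, 4542 for B/T BAL and 11605 for normal marrow. Nuf2 had 6768, 2875, 4899 and 7676 in the same order. Ndc80 itself was higher in mixed lineage leukemia (2070) than in normal marrow (1520) and lower in proB ALL (1015) and B/T BAL (933). The other Spc25 probe set had mixed lineage leukemia on top and proB ALL level with normal marrow, with 925, 252, 320 and 251, so the pattern of Spc25 differed between its probe sets. Cenpa, the centromeric histone, had 11801, 5450, 9546 and 12366. Cenpe, a kinetochore motor, had 1709, 1887, 2832 and 3756. Cenpf, a large kinetochore protein of G2 and M, had 5240, 3348, 3767 and 7955.

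Among 9 kinesins and spindle proteins, 2, 6 and 3 were at least 2-fold lower in the mixed lineage, proB and B/T leukemias (beside 15.2%, 18.7% and 17.7% of all genes), with medians of -0.53, -1.16 and -0.45. Prc1, which bundles microtubules of the central spindle, had 4280, 2201 and 3353 in the mixed lineage, proB and B/T leukemias and 8767 in normal marrow. Its other probe set gave 2996, 1391, 4152 and 7727, so normal marrow was highest and proB ALL lowest in both. Hmmr, a spindle protein known as RHAMM, had 3825, 2363, 3709 and 8064. Of its 5 probe sets, 4 were higher in normal marrow than in each leukemia, and the fifth had 602 in proB ALL against 363 in normal marrow. Kif11, the motor that separates spindle poles, had 4128, 1835, 3443 and 4729. Tpx2, which activates Aurora A, had 4359, 2331, 3922 and 6332, and Nusap1, a microtubule bundler, had 13961, 8452, 7959 and 18536. Kif20a, Kif23, Kif2c and Kif4, motors of the midzone, the centromere and chromosome arms, lay between 2.26-fold lower and level with normal marrow.

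The cytokinesis genes Anln, Ect2 and Racgap1 shared no pattern. Anln (anillin of the contractile ring) had 5534 for mixed lineage leukemia, 1530 for proB ALL, 1876 for B/T BAL and 8383 for normal marrow, the largest gap to normal marrow of any member in both AF4-MLL leukemias (5.48-fold and 4.47-fold). Ect2, the exchange factor that turns on RhoA at the midzone, had 7442, 3601, 4339 and 5643, with mixed lineage leukemia above normal marrow. Racgap1, a subunit of the centralspindlin complex, had 4385, 4848, 3700 and 4613, so all 4 arrays were within 1.5-fold. Another Racgap1 probe set had 2654, 2314, 2120 and 3859, with normal marrow on top.

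Genes of anaphase and mitotic exit were below normal marrow in all 3 leukemias, 4 of 4, beside 74.4% of all members and 19.2% of all genes. Ube2c, the ubiquitin-conjugating enzyme of the APC/C, had 18364, 7889 and 11904 in the mixed lineage, proB and B/T leukemias and 33818 in normal marrow. It was 1.84-fold, 4.29-fold and 2.84-fold lower, with a fitted log2 difference of -1.49 ± 0.65 (limma standard error, unadjusted p = 0.0535, adjusted p = 1). Pttg1, securin, was nearly even over the leukemias, with 10260, 9913 and 10344 against 19368 in normal marrow, just inside 2-fold on each array. Its 3 probe sets gave mean log2 differences of -1.15, -1.24 and -0.93. Espl1, separase, had 1274, 1400, 2961 and 3221, and Cdc20, the APC/C activator, had 13160, 17561, 17676 and 21115. For Cdc20 the mixed lineage array was the lowest, unlike for Ube2c.

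The leukemias differed from one another for fewer members than genes at large. The log2 range over the 3 leukemias was at least 1 for 17 members (39.5%), beside 63.8% of all genes tested, and its median was 0.89 beside 1.30. Every member lay above the floor on each array, while a tested gene had to pass the floor on at least 1. The part of signal level in this contrast was not tested. Between mixed lineage leukemia and proB ALL, 9 members were at least 2-fold higher in the former (20.9%, beside 27.3%) and Cdc25b was at least 2-fold lower, beside 15.7%. The 9 were Anln, Cdk1, Spc25, Nuf2, Ube2c, Kif11, Cenpa, Ccnb2 and Ect2. Their number was 14 with arrays scaled to a common 75th percentile and 5 with each comparison centred on the median of all genes. Between mixed lineage leukemia and B/T BAL, 3 members were at least 2-fold higher in the former (Anln, Plk4 and Ndc80, beside 26.3% of all genes) and 5 lower (Bub1b, Cdc25b, Cdc25c, Nek2 and Espl1, beside 21.2%). Between proB ALL and B/T BAL, both with AF4-MLL alone, 4 members were at least 2-fold lower in proB ALL (Cdc25c, Bub1b, Aurka and Espl1, beside 15.9%) and 0 higher, beside 10.5%. The median log2 difference of the members was 0.56 for mixed lineage leukemia minus proB ALL, 0.11 for mixed lineage leukemia minus B/T BAL and -0.57 for proB ALL minus B/T BAL, beside 0.18, 0.08 and -0.17 for all genes.

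The leukemia with both fusions was also set against the 2 with AF4-MLL alone. By limma with Benjamini-Hochberg adjustment, 0 of 43 members and 0% of all genes passed the threshold of 0.05. Anln had a log2 difference of 1.68 ± 0.52 (standard error) towards both fusions, with a limma adjusted p of 0.216. Cdc25b had -1.54 ± 0.51, with a limma adjusted p of 0.231. These were the 2 members with an unadjusted p under 0.05, 1 in each direction, beside 12.3% of all genes higher and 5.47% lower. Fusion and immunophenotype cannot be told apart here, since 1 leukemia carried both fusions.

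Other genes of the division machinery, outside the members, gave further comparisons. Shares of all genes at least 2-fold lower than normal marrow, against which the counts of these lists read, were 15.2%, 18.7% and 17.7% in the mixed lineage, proB and B/T leukemias. Of 28 measured further centromere and kinetochore genes, 6, 12 and 4 were at least 2-fold lower in the mixed lineage, proB and B/T leukemias, with medians of -0.53, -0.92 and -0.58. Oip5, which loads the centromeric histone, had 208, 327 and 218 in the leukemias against 1632 in normal marrow. Cenpn and Cenpi, parts of the inner kinetochore, had fitted log2 differences of -1.42 and -1.21. Of 24 further spindle and cytokinesis genes 7, 11 and 2 were at least 2-fold lower, with medians of -0.22, -0.75 and -0.15, so the B/T counts of both lists lay below the background. Depdc1b had a fitted log2 difference of -1.53, Kif18a, a motor that limits chromosome movement, -1.43 and Kifc1, a minus-end motor, -1.37.

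Condensin and cohesin genes, which shape chromosomes and hold sisters together, had medians of -0.21, -0.87 and -0.21, with 1, 8 and 3 of 20 at least 2-fold lower, above the background in proB ALL alone. Smc2, a core condensin subunit, had 13726, 4183 and 6183 in the mixed lineage, proB and B/T leukemias and 15748 in normal marrow. Esco2, which acetylates cohesin, had a fitted log2 difference of -1.07 and Cdca5 (sororin) -0.89. Of 20 genes of mitotic entry control 4, 8 and 3 were at least 2-fold lower, with medians of -0.15, -0.95 and -0.17, so the mixed lineage and B/T counts were near the background. Among them Cdkn3 and Mybl2, the latter the MuvB partner, had fitted log2 differences of -1.80 and -1.18, and Bora, an activator of Aurora A, went the other way with 2917, 3567 and 2398 in the leukemias against 1058 in normal marrow. APC/C genes, many of them expressed throughout the cell cycle, had medians of -0.28, -0.27 and 0.13, with 2 of 15 at least 2-fold lower in each leukemia. Fbxo5 (Emi1) and Fzr1 (Cdh1), the regulators in that list, had -1.71 and -1.48, and the subunit Anapc4 had 0.80. By limma 0 genes of these 5 lists passed the adjusted threshold, with 2 lower and 0 higher at an unadjusted p under 0.05 (Fbxo5 and Oip5), a share near the 2.63% of all genes.

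DNA replication and S-phase genes ordered the leukemias differently by their medians. Their medians were -0.85, -0.62 and -0.17 for the mixed lineage, proB and B/T leukemias over 33 genes. By median the mixed lineage array was thus lowest in the S-phase list and proB ALL in the mitosis and G2/M genes. The counts of S-phase genes at least 2-fold lower were 9, 9 and 5 of 33, beside 15.2%, 18.7% and 17.7% of all genes. By that count the mixed lineage and proB arrays were level, and their summed signals were close, at 234440 and 235883. The difference between the lists was not tested. Cdc6, a licensing factor, had 1853, 1981 and 2391 in the leukemias against 9657 in normal marrow (limma adjusted p = 0.82). Ccne1 and Ccne2, the E-type cyclins, had fitted log2 differences of -1.50 and -1.63. The homology letters were in the last 100 bases of 6.45% of the 31 S-phase windows, 6.25% of the 16 APC/C windows, 22.2% of the 27 further centromere and kinetochore windows, 23.5% of the 17 mitotic entry windows, 38.9% of the 18 condensin and cohesin windows and 62.5% of the 24 windows of further spindle and cytokinesis genes.

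**Figure D5:**
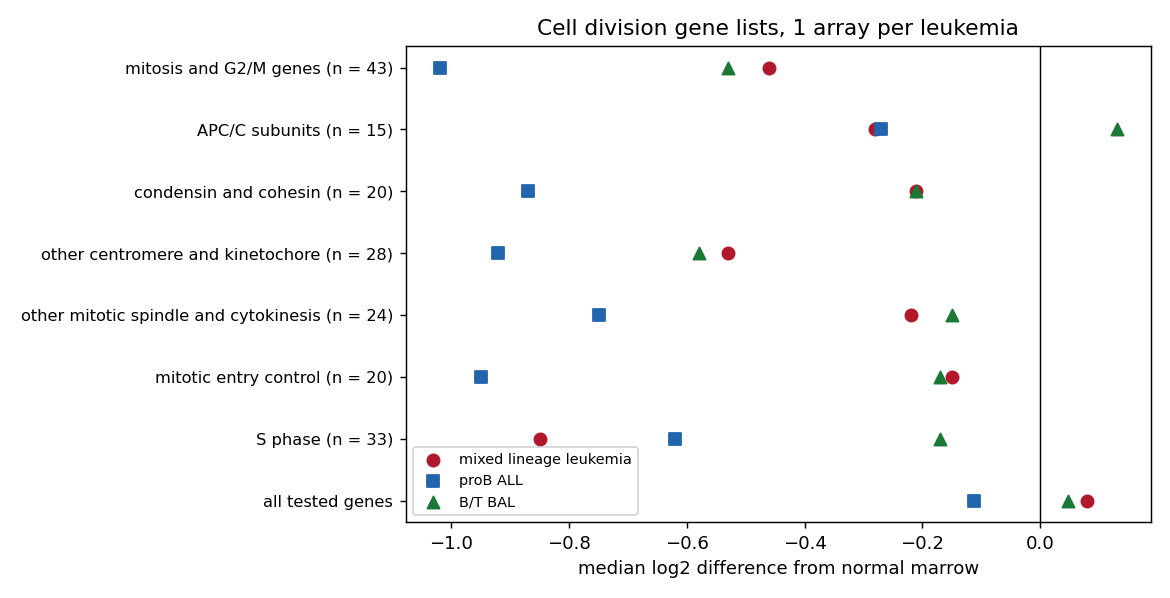
Median log2 difference from normal marrow of each list of cell division genes and of all tested genes, 1 point per leukemia array, with the number of measured genes in brackets. The proB ALL point is the lowest in 5 of the 7 lists, mixed lineage leukemia is lowest in the S-phase list, and both nearly coincide in the APC/C list (-0.28 and -0.27).

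Probe sets of 1 member did not always point the same way. Of 28 members with at least 2 probe sets above the floor, 19 had all of them on the same side of normal marrow by the mean over the leukemias, and 9 did not (Bub3, Hmmr, Incenp, Kif11, Kif2c, Spc25, Top2a, Tpx2 and Ttk). The median range between probe sets of a member was 0.59 on the log2 scale and the widest was 2.20, for Hmmr. The signals given come from the member's brightest probe set by mean log2 signal, unless another is named.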

How the data were processed

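Biotinylated RNA of 4 samples went on 1 array each, per the labels' protocols. The deposited values are intensities, 1 linear signal per probe set. Per the submitters' processing notes the tool was MAS5, with version and settings not given in the sources used. Each array had a mean of 1000 after trimming 2% from each end. Of 45037 probe sets without the 64 controls, 34945 named 1 gene, 932 several and 9160 none in GEO's platform annotation. Through gene identifiers 34741 matched RefSeq's GRCm38.p6 table, and 0 symbols changed.

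The pseudocount of 51.4 is the 25th percentile of all signals. The probe set brightest on average (mean log2) stood for its gene. A gene was tested where its signal passed the floor on at least 1 array. Differences on this scale understate changes of dim genes. Leukemia against normal marrow, 3 arrays against 1, and both fusions against AF4-MLL alone were fitted with limma 3.58.1 in R 4.3.3, using eBayes with a trend on intensity, over all genes, with 2 and 1 residual degrees of freedom. A lone array is assumed to vary like the others, and the p-values rest on how far leukemias of different type lie apart. Single arrays were compared by 2-fold counts with no test, on the log2 scale, while folds in the text are ratios of signals. The number of arrays limits the precision. The fits were tried on simulated arrays with planted changes. The spread there was set in advance and not estimated from these arrays, so the trial does not show what these arrays could detect. Members and lists were chosen with earlier results of these data known. All members were named, and the 3 genes of each other list with the largest fitted difference. Scaling, pseudocount, filter, probe-set rule, variance model and left-out leukemias were varied.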

Additional observations from a re-analysis of the deposited data

How the results depend on the processing

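No paired analysis was possible because each group held 1 sample. With 1 array a group, no group could be checked for an outlying sample. By limma 0 members passed in either comparison under every alternative run, at an unadjusted p under 0.05 0 to 6 were lower and 0 higher than normal marrow, and all genes gave 23 calls with robust eBayes, 15 with a pseudocount at the 50th percentile, 71 without proB ALL and 113 without B/T BAL. Without mixed lineage leukemia 6 members were lower at an unadjusted p under 0.05, while all genes below that p, in either direction, went from 413 to 1229. The median over the members ranged from -0.58 to -0.32 in mixed lineage leukemia, -1.11 to -0.91 in proB ALL and -0.60 to -0.39 in B/T BAL, and normal marrow was highest for 23 of 34 to 34 of 43 members. With a 1.5-fold threshold 19, 37 and 20 members were below normal marrow in the mixed lineage, proB and B/T leukemias, beside 25.3%, 30.5% and 27.1% of all genes. At that threshold 21 were higher in mixed lineage leukemia than in proB ALL (37.7% of all genes), 8 lower in it than in B/T BAL (31.4%), and 20 lower in proB ALL than in B/T BAL (30.4%). Scaled to the 75th percentile, 4 were lower in mixed lineage leukemia than in normal marrow and 14 higher than in proB ALL. Without probe sets marked _s, _x or _a, which left 34 members, 5 were higher in mixed lineage leukemia than in proB ALL, 3 lower than in B/T BAL and 21 lowest in proB ALL. Centred on the median of all genes, an alternative chosen after seeing the data, 5 were higher in mixed lineage leukemia than in proB ALL.

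A few members took the other direction under an alternative, and the cause was not tested. Without marked probe sets the fitted differences became 0.52 for Top2a, -0.37 for Bub3, 0.66 for Spc25 and 0.14 for Hmmr, and single-array differences 0.45 for Cenpa, 0.00 for Spc25 and 0.66 for Hmmr in proB ALL and 0.29 for Spc25 in B/T BAL. With the mean over probe sets Ttk had 0.04 over the leukemias and 0.02 in proB ALL. With 1 leukemia left out, Cdca8 ranged from -0.35 to 0.01 and Ect2 from -0.51 to 0.01, both highest without proB ALL, and Bub1b from -0.54 without B/T BAL to 0.42 without proB ALL. No member was called under any scaling. Every statement on a single array rests on 1 hybridisation.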
